A study of Rattus norvegicus with 110 samples.

Results

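Liver RNA of vehicle-dosed F2 male rats whose F0 grandsire had received carbon tetrachloride (CCl4), with an untreated F1 sire, was compared with that of vehicle-dosed males without a treated ancestor. The former are group 17 of the study (F0-treated/F1-control, 6 males) and the latter group 11 (F0-control/F1-control, 7 males), so the comparison rests on 13 of the 110 samples of the series. All animals were outbred Sprague Dawley rats, and both groups received olive oil by oral gavage at 0.5 mL/kg, 3 times per week, with livers taken on day 39. F0 males of group 17's lineage had been given 50% CCl4 in olive oil for 6 weeks and had recovered for 2 weeks before mating with untreated females, while F0 males of group 11's lineage and the F1 sires of both groups had been given olive oil alone. Males are named here by their group and number. Males 1 and 2 of group 17 were littermates, and males 4 and 5 of group 11 came from different F1 sires of the same F0 sire. The remaining males had different F0 sires within their group. Necropsies were spread over 4 dates, and each date held males of both groups. A seventh male of group 17 had been excluded by the study as moribund.

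CCl4 is converted in hepatocytes around the central vein by cytochrome P450 enzymes into a reactive radical, which kills these cells. On repeated dosing, hepatic stellate cells turn into matrix-producing myofibroblasts, and scar tissue builds up. The study asked whether such an injury in a male ancestor alters how the livers of later generations respond to the same agent. Groups 17 and 11 address the baseline side of that question, since neither the F2 males nor their sires were dosed with CCl4.

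The 13 liver libraries held 33808370 to 46322415 estimated counts. On principal components of the 1000 most variable genes, PC1 carried 21.6% of the variance and PC2 12.7%, and each was set by 1 male of group 17. Male 2 of group 17 lay at 77.1 on PC1, with the other 12 males between -12.3 and 1.43, and had counts for 18475 genes against 16926 to 17499 in the others. In this library 419 genes had a normalized count over 10 and over 4 times that of each other male. They took 0.0515% of its counts together, and none of them had a symbol here. Male 4 of group 17 lay at -52.1 on PC2, and its median correlation with the other males of its group was 0.892, against 0.961 to 0.970 for the remaining 12. In its library 59 genes stood out in the same way and took 0.421% of its counts. The cell types in the samples could scarcely be checked, because symbols were available only for genes that the study had selected, and none of the listed general hepatocyte, periportal, stellate cell, cholangiocyte, neutrophil or red blood cell markers was among them. Cyp1a2, which encodes a hepatocyte cytochrome P450, was present in all 13 livers and stayed under the count filter in the kidneys.

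**Figure D1:**
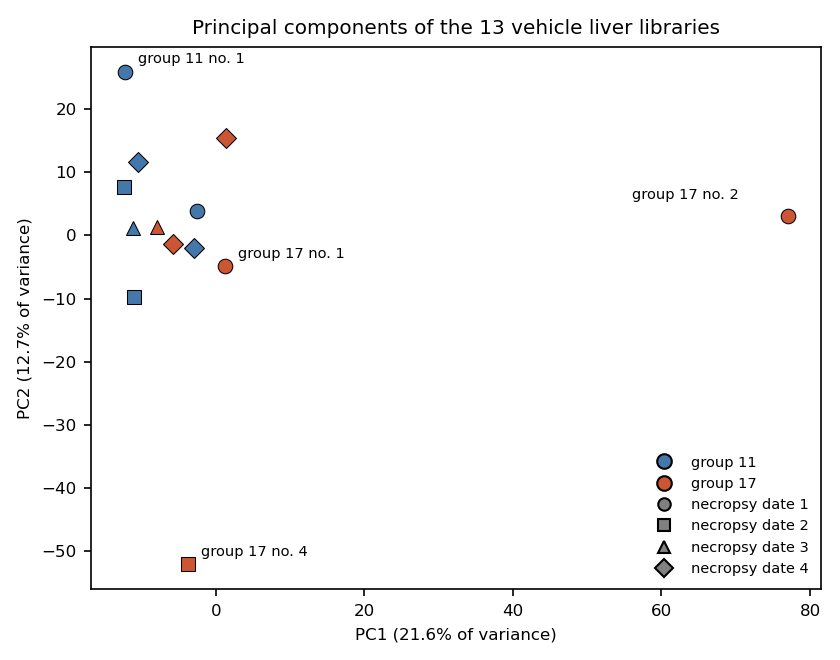
Each point is 1 liver library, placed by PC1 (21.6% of the variance, x axis) and PC2 (12.7%, y axis) of the 1000 most variable genes on the log2 scale, with colour for the group and marker shape for the necropsy date. Male 2 of group 17 lies alone at 77.1 on PC1 and male 4 alone at -52.1 on PC2, and the other 11 males lie closer together.

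Of the genes tested, 52 (0.274%) were called between the groups and 18952 were not, at an adjusted p under 0.1 with edgeR's quasi-likelihood test. Of the calls, 37 were higher in group 17 (0.195% of genes tested) and 15 lower (0.0789%). At an unadjusted p under 0.05 there were 2581 genes (13.6%), of which 1835 had higher (9.66% of genes tested) and 746 lower values (3.93%) in group 17. The fit shared its estimate of the spread over all 83 livers of the 12 F2 groups. With only the 13 males in the fit, 0 genes were called and 1702 had an unadjusted p under 0.05. With all groups but without males 2 and 4 of group 17, an alternative added after seeing the data, 0 were called as well (1235 at an unadjusted p under 0.05). With males of the same F0 sire summed into 1 sample, which joins the littermates of group 17, Srfbp1 was the 1 gene called (2627 at an unadjusted p under 0.05).

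Level separated the called genes. Of the 30 with a mean normalized count over 50 across the 13 males, 16 rose and 14 fell, whereas of the 22 at or below 50, 21 rose and 1 fell. In 15 of those 21, a single male held over 50% of the counts of group 17, and that was male 2 in 13 of the 15, male 4 in 1 and male 7 in 1. In 8 of the 13, male 2 held over 90%. Among the 52 called genes, 8 had no count in any of the 7 livers of group 11, where 0 counts allow up to 3 in each library. In 1 of these, a gene without a symbol, all 6 males of group 17 had counts, with a lowest normalized count of 5.87, a median of 36.6 and a highest of 151. In the further pairs of F0-treated and F0-control groups its log2 fold change was not of 1 kind. It was -0.61 ± 1.21 (SE) for 20 against 14, 8.12 ± 2.25 for 18 against 12 and 0.01 ± 1.16 for 19 against 13.

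**Figure D2:**
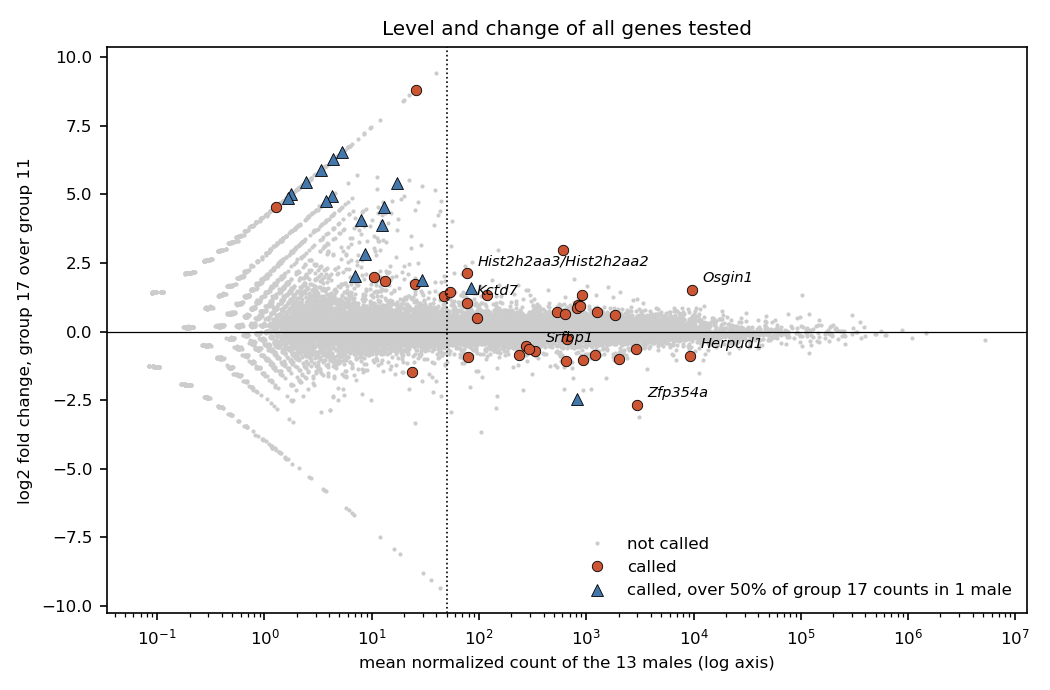
Each point is a gene tested that had counts in the 13 males, with its mean normalized count on a log x axis and the log2 fold change of group 17 over group 11 on the y axis. Blue triangles are called genes in which 1 male held over 50% of the group 17 counts, and they sit mostly to the left of the dotted line at a mean of 50. The higher and lower called genes to its right are 16 and 14.

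A symbol was available for 18 of the 52 called genes, 6 higher and 12 lower. These symbols come from gene lists that the study selected for an effect of F0 treatment on samples that include these, so the direction of a symbol-bearing gene is not independent evidence.

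Srfbp1, a nuclear partner of serum response factor that is also linked to ribosomal RNA maturation, had normalized counts from 303 (median 421) to 483 in group 11 and from 182 (median 244) to 319 in group 17. The groups overlapped only between 303 and 319. With a log2 fold change of -0.69 ± 0.13 (SE) and an adjusted p of 0.011 by edgeR, Srfbp1 had the smallest adjusted p of the comparison together with ENSRNOG00000013090.7, a higher gene without a symbol, and these 2 were the calls left at a threshold of 0.05.

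Herpud1 encodes a membrane protein of the endoplasmic reticulum that takes part in the removal of misfolded proteins. Its normalized counts ran from 8472 (median 11259) to 17871 in group 11 and from 5292 (median 6178) to 7401 in group 17. Every male of group 17 was below every male of group 11. The log2 fold change was -0.91 ± 0.21 (SE; adjusted p = 0.0704, edgeR). In group 11 the values differed by necropsy date, with 8765 and 8478 on date 1, 15155 and 17871 on date 2, 8472 on date 3 and 11259 and 12775 on date 4, and the log2 difference of the groups ran from -0.34 on date 1 to -1.43 on date 2. Edem1, which directs misfolded glycoproteins to the same degradation route, had values from 19702 (median 25333) to 36325 in group 11 and from 10527 (median 14217) to 23426 in group 17, with a log2 fold change of -0.80 ± 0.27 that was not called (adjusted p = 0.155, edgeR). These 2 were the only members of a list of 19 unfolded protein response genes that could be looked up here.

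The promoter of Herpud1 is shown because the gene is a standard target of the unfolded protein response, which acts through the ERSE-II motif. The 250 bases before its start (RefSeq, GRCr8, chr19:10614708-10614957, minus strand) hold 1 match to ERSE-II (ATTGG, any base, then CCACG, searched on both strands), in capitals, from base -124 to base -114.
Herpud1: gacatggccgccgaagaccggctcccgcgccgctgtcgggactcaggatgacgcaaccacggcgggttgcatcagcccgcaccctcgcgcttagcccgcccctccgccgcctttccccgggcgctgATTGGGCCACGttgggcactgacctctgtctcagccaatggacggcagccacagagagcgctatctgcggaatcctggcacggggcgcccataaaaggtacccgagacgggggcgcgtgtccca
Of 33469 promoters of the same length, 14 (0.0418%) hold this motif. Among the 15 promoters matched by symbol to the called genes and Edem1, that of Herpud1 was the only one with it. The longer ERSE motif (CCAAT, any 9 bases, then CCACG) was in 22 promoters (0.0657%) and in none of the 15, and the antioxidant response motif TGACNNNGC was in 3373 (10.1%) and, of the 15, only in that of Pcyt1a. A match is a description of these letters and not of binding.

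Acer2 and Pcyt1a, both enzymes of membrane lipids, were among the lower genes. Acer2, an alkaline ceramidase of the Golgi that releases sphingosine from ceramide, had normalized counts from 927 (median 1143) to 1638 in group 11 and from 471 (median 537) to 813 in group 17. The groups did not overlap. Its log2 fold change was -1.04 ± 0.25 (SE; adjusted p = 0.0779, edgeR). Pcyt1a, the rate-limiting enzyme of phosphatidylcholine synthesis, went from 2874 (median 3531) to 3850 in group 11 and from 1722 (median 2018) to 3206 in group 17, a log2 fold change of -0.63 ± 0.13 (adjusted p = 0.0653). Male 9 of group 17 reached into the range of group 11, and the other 5 did not. Ttpal, a relative of the tocopherol transfer protein, had medians of 1476 and 786, and a log2 fold change of -0.87 ± 0.20.

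Rapgef5, an exchange factor that activates Rap GTPases, was the third symbol-bearing gene without overlap. Its normalized counts lay between 657 (median 784) and 1341 in group 11 and between 270 (median 403) and 609 in group 17, with a log2 fold change of -1.06 ± 0.23 (SE; adjusted p = 0.0679, edgeR). Kit, the receptor tyrosine kinase for stem cell factor, had medians of 254 and 160 (log2 fold change -0.84 ± 0.19) and overlapped only between 229 and 232. Mgat4a, which adds branches to N-linked glycans, had medians of 93.4 and 50.8 (-0.92 ± 0.21). The DNA repair endonuclease Apex2 fell by 0.54 on the log2 scale (SE 0.13). Dcaf12, a substrate receptor of a ubiquitin ligase, fell by 0.29 (SE 0.07), the smallest change among the called genes with a mean over 50.

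**Figure D3:**
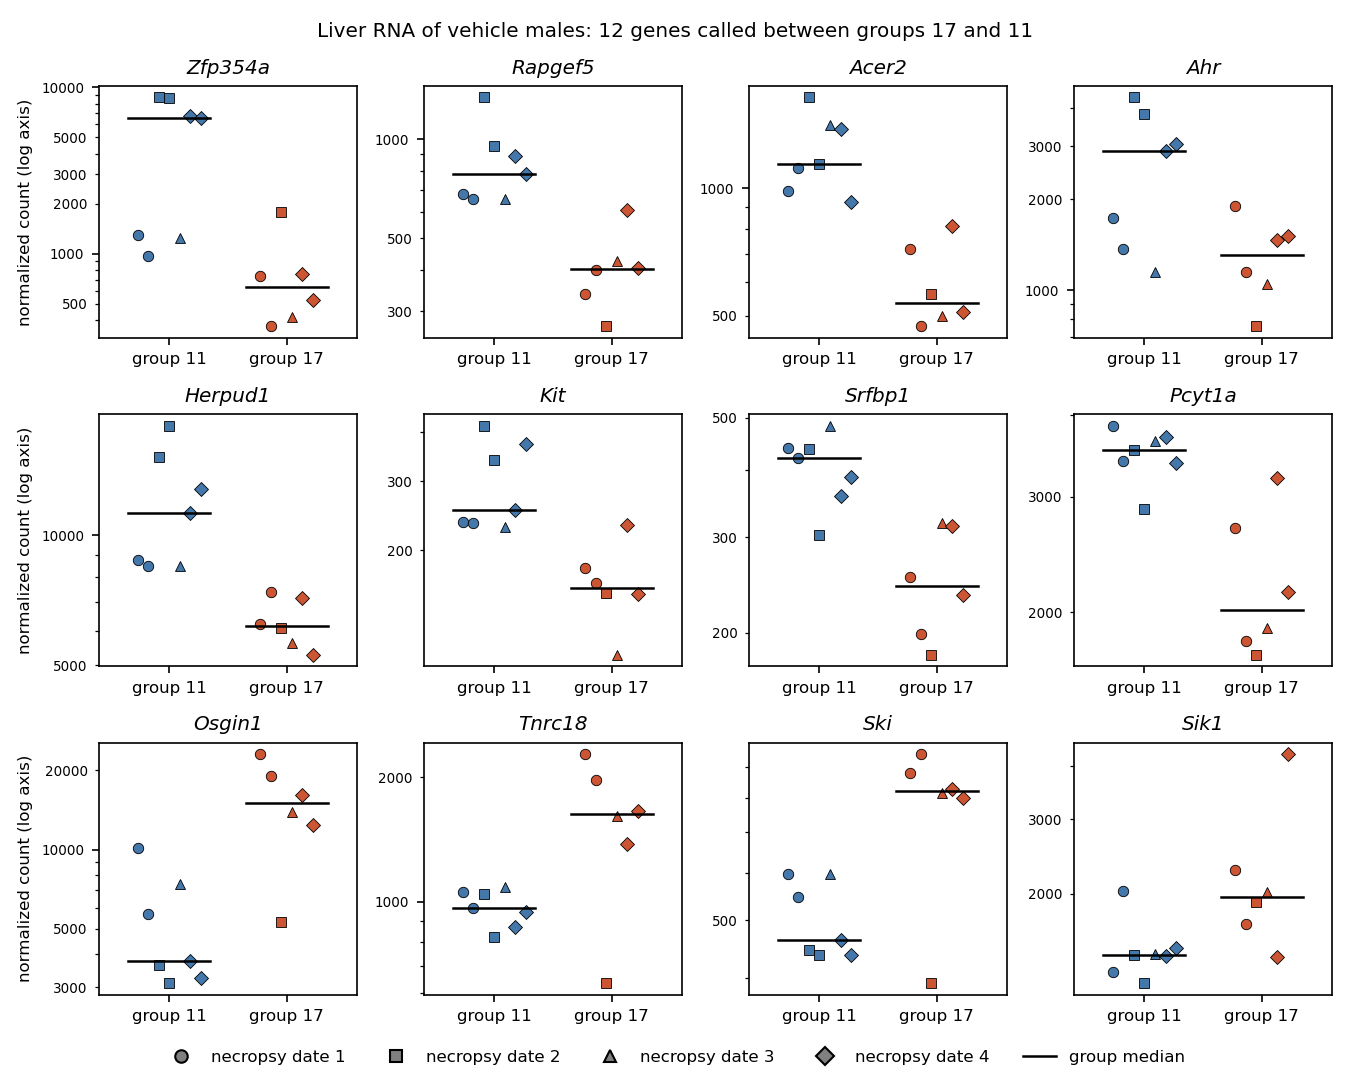
Each panel gives 1 called gene with the normalized counts of the 7 males of group 11 and the 6 of group 17 on a log y axis, a black bar at each group median and marker shapes for the necropsy dates. Herpud1, Acer2 and Rapgef5 show no overlap of the groups, Tnrc18 and Ski each have male 4 of group 17 below all of group 11, and Zfp354a and Ahr spread in group 11 by necropsy date.

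Zfp354a and Ahr, like Herpud1, varied with the necropsy date in group 11. Zfp354a, which encodes a zinc finger transcriptional repressor first described in the kidney, had values of 1287 and 975 on date 1, 8701 and 8645 on date 2, 1248 on date 3 and 6698 and 6540 on date 4 in group 11. In group 17 the values were 735 and 366, 1790, 415, and 753 and 525 on the same dates. Males of group 17 were thus lower on each date, by 1.11 on the log2 scale on date 1 and by 3.4 on date 4, and the log2 fold change of the fit was -2.67 ± 0.67 (SE; adjusted p = 0.0919, edgeR).

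Ahr, the ligand-activated receptor that induces Cyp1a enzymes, had values of 1734 and 1372, 4351 and 3846, 1146, and 2885 and 3060 in group 11, and of 1903 and 1149, 758, 1044, and 1461 and 1507 in group 17. Its log2 difference was -0.06 on date 1 and -0.13 on date 3, but -2.43 on date 2 and -1.0 on date 4. The fit gave -1.01 ± 0.26 (adjusted p = 0.094, edgeR). With necropsy date as a block Zfp354a stayed called and Ahr did not, and Dcaf12, Kctd7, Sik1, Ski and Tnrc18 lost their calls as well. Cyp1a2 itself did not overlap between the groups, from 14660 (median 16201) to 17735 in group 11 and from 7934 (median 12549) to 14417 in group 17, but it was not called across all genes (log2 fold change -0.44 ± 0.39, adjusted p = 0.653, edgeR). The fit shares its spread over all groups, and group 14 held a Cyp1a2 value of 173587 beside a median of 16783. Cyp1a1 had low counts, with medians of 11.8 in group 11 and 8.60 in group 17 (log2 fold change 0.07 ± 1.27), and was not called. The pattern by date was noticed after the values were seen, the dates of RNA isolation are not given in the sources used here, and the part of the date in the result was not tested beyond the block. Of the 18 symbol-bearing genes, 16 had the same direction on all 4 dates, and Tnrc18 and Ski were reversed on date 2, where male 4 was the only one of group 17.

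Osgin1, a growth inhibitor induced by oxidative stress through the transcription factor Nrf2, was the most abundant of the higher genes. Its normalized counts ran from 3109 (median 3764) to 10181 in group 11 and from 5321 (median 15016) to 23016 in group 17. All but 1 male of group 17 were above all of group 11, and the exception was male 4. The log2 fold change was 1.5 ± 0.39 (SE; adjusted p = 0.0986, edgeR). Of the other Nrf2 list members with a symbol, Nfe2l2, which encodes Nrf2 itself, had a log2 fold change of 0.36 ± 0.18 and Akr7a3, an aldehyde reductase, of -0.26 ± 0.33, and neither was called.

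Tnrc18, a large nuclear protein, had values from 822 (median 964) to 1086 in group 11 and from 635 (median 1634) to 2274 in group 17 (log2 fold change 0.71 ± 0.18, adjusted p = 0.094, edgeR). Ski, a co-repressor that restrains SMAD transcription factors downstream of TGF-beta, had values from 437 (median 464) to 596 and from 392 (median 822) to 945 (0.63 ± 0.16, adjusted p = 0.094). In both genes male 4 of group 17 was the lowest of the 13, and without it the log2 fold changes were 0.88 for Tnrc18 and 0.76 for Ski. Neither stayed called with necropsy date as a block. Sik1, a kinase that keeps CREB coactivators out of the nucleus, had medians of 1439 and 1969 (0.61 ± 0.15). Male 10 of group 17 held its highest value, 4266, and without that male the log2 fold change was 0.33 and the call was lost (adjusted p = 0.261, edgeR). Kctd7, a partner of the ubiquitin ligase scaffold cullin-3, had medians of 52.5 and 100.0 (1.04 ± 0.26).

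The histone gene pair Hist2h2aa3/Hist2h2aa2 had the largest log2 fold change among the higher symbol-bearing genes, 2.12 ± 0.51 (adjusted p = 0.0811, edgeR). Its values went from 17.7 (median 27.5) to 63.1 in group 11 and from 32.9 (median 71.3) to 398 in group 17, with the highest in male 4. Without that male the log2 fold change was 1.39 and the call was lost (adjusted p = 0.187). The copies are nearly identical, so their reads cannot be assigned with certainty, and replication-dependent histone transcripts mostly lack the poly(A) tail by which these libraries were selected.

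Among the called genes without a symbol, 2 higher and 2 lower ones were taken as examples. ENSRNOG00000013090.7 had normalized counts from 73.5 (median 160) to 219 in group 11 and from 288 (median 1220) to 2199 in group 17. The groups did not overlap, and the log2 fold change of 2.96 ± 0.56 was the largest among called genes with a mean over 50 (adjusted p = 0.011, edgeR). ENSRNOG00000028640.7 had values from 13.5 (median 47.5) to 78.3 and from 58.6 (median 60.3) to 481, where the highest was male 4, and its log2 fold change went from 1.57 to 0.50 without that male. ENSRNOG00000019265.6 had medians of 322 and 220 without overlap (log2 fold change -0.62 ± 0.14), and ENSRNOG00000014426.7 spread from 40.4 to 2371 in group 11 and from 19.8 to 770 in group 17 (-2.45 ± 0.62).

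Groups did not overlap for 11 of the 52 called genes, 7 higher and 4 lower. Over all genes tested 51 (0.268%) were without overlap, and those called were chosen by the same contrast, so the count describes them only.

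The genes that the study singled out as exemplary, as stellate cell genes or, for Hells, as a chromatin regulator gave 3 calls out of 9 in this comparison, namely Acer2, Ahr and Ski, beside 0.274% of all genes tested. The study had picked the exemplary genes by their fold change between these groups. The other 5 came from its list of cumulative ancestral effects, which also required a difference between these groups at a looser threshold. The count is therefore a description only. Zbtb16, a zinc finger repressor induced by glucocorticoids, had values from 397 (median 1574) to 3227 in group 11 and from 85.7 (median 343) to 793 in group 17. The medians were far apart, but the spread was wide, and the log2 fold change of -2.10 ± 0.74 did not pass (adjusted p = 0.172, edgeR). Lpin1, a phosphatidate phosphatase and coactivator of fatty acid oxidation, had medians of 5432 and 1851 (-1.38 ± 0.46, adjusted p = 0.153), and Slc10a2, the bile acid transporter of cholangiocytes and ileum, of 45.0 and 81.1 (0.97 ± 0.31, adjusted p = 0.133). The cytokine receptor Il17ra (0.31 ± 0.09), the angiogenic factor Vegfa (0.44 ± 0.15) and the chromatin remodeller Hells (0.64 ± 0.24) also missed the threshold. The exemplary genes are Acer2, Zbtb16, Lpin1 and Slc10a2. The study also measured them in livers of both groups by quantitative PCR and in situ hybridization, and reported changes in the directions seen here. By in situ hybridization it described most of these changes as trends. Those livers include the ones sequenced, and the measurements were not used here. None of the 8 fibrosis markers listed could be looked up here.

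Of 55 ribosome biogenesis genes listed, 50 had a symbol and were tested. All 50 had a log2 fold change below 0 in this fit, as had 8200 of all genes tested. Of the 50, 23 were lower at an unadjusted p under 0.05, beside 3.93% of all genes, but Srfbp1 was the only one called. Their median was -0.28, against 0.05 over all genes tested and 0.01 over those with a mean over 50. The extremes were Gar1, a protein of H/ACA small nucleolar particles, with medians of 171 in group 11 and 88.3 in group 17 (-0.76 ± 0.22, adjusted p = 0.117, edgeR), and Rrp7a, a processing factor of the small subunit, at -0.01 ± 0.09, which turned positive under 14 of 30 alternatives. Since the study had selected these genes for an F0 effect, their common direction is not independent evidence.

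Glucocorticoid-induced genes were lower in value as well. All 7 members with a symbol out of 14 had log2 fold changes below 0, with a median of -0.79 and from -2.10 for Zbtb16 to -0.58 for Tat, the tyrosine aminotransferase of hepatocytes. None was called, and 4 had an unadjusted p under 0.05. Over all genes tested, 8200 had values below 0, and 3.93% were lower at that p. The 7 genes are on the study's list of F0 effects, so their direction is not independent evidence either. Within the clock genes, the members of the Per and D-box arm did not move one way. Dbp, a clock-driven transcription factor, had values from 56.8 (median 110) to 133 in group 11 and from 133 (median 199) to 414 in group 17 (1.08 ± 0.58, adjusted p = 0.404), whereas Usp2, a rhythmic deubiquitinase, had medians of 1395 and 334 (-1.70 ± 0.52, adjusted p = 0.126). Usp2 followed the same dates as Zfp354a in group 11, with 597 and 419, 1671 and 1633, 543, and 1395 and 1555. The time of day of necropsy is not given for single animals, and its part in these values was not tested.

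In the interleukin-6 pathway, the receptor Il6r had values from 5582 (median 10061) to 11701 in group 11 and from 2656 (median 4263) to 6075 in group 17 (-1.02 ± 0.29, adjusted p = 0.117, edgeR). Socs3, the feedback inhibitor of the same pathway, lay between 65.9 (median 92.9) and 137 and between 106 (median 220) and 336 (1.28 ± 0.34, adjusted p = 0.101). Neither was called, and of the 4 acute phase genes with a symbol none was. Il6r also differed by date in group 11, with 8224 and 6696, 11701 and 10651, 5582, and 10414 and 10061 on dates 1 to 4.

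Among the Kupffer cell and macrophage markers, 2 could be looked up, and both had lower medians in group 17. Cd163, the haemoglobin scavenger receptor of Kupffer cells, had values from 2089 (median 2945) to 3138 in group 11 and from 786 (median 1671) to 2272 in group 17, with male 4 the lowest. Its log2 fold change was -0.74 ± 0.21 (adjusted p = 0.11, edgeR). Adgre1, which encodes the F4/80 antigen, had medians of 1003 and 820 (-0.55 ± 0.21). These were the 2 of 8 Kupffer cell and macrophage markers with a symbol, both are on the study's list of F0 effects, and neither was called. Cd163 was called in 5 of the 13 fits that leave out 1 male. In bulk tissue, fewer cells of a type and less RNA per cell cannot be told apart, and the part of macrophage content in the called genes was not tested. The endothelial marker Kdr (-0.17 ± 0.21), the lymphocyte marker Cd4 (-0.29 ± 0.17) and the adipocyte gene Cidec (-0.13 ± 0.16) lay closer to 0 and were not called.

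The effect of F0 treatment could be compared in 3 further pairs of groups that share no sample with groups 17 and 11, namely 20 against 14 (vehicle, F1 sire treated in both), 18 against 12 (8% CCl4) and 19 against 13 (50% CCl4). Groups 18 and 19 hold littermates of group 17, and groups 12 and 13 hold littermates of group 11. The study placed male pups of an F0 litter in different F1 groups where possible. Groups 20 and 17 can therefore share F0 grandsires, as can groups 14 and 11. The 3 pairs gave 0, 24 (0.126%) and 24 (0.126%) calls, with 982, 1719 and 1581 genes at an unadjusted p under 0.05. All 18 symbol-bearing genes had the same sign in each of them, with an unadjusted p under 0.05 in 6, 16 and 13 genes and a smaller absolute log2 fold change in 18, 16 and 17. The study selected its list over these pairs too. For the 11 called genes with a mean over 50 outside that list, the sign was the same in 5, 10 and 8, against 49.6%, 66.6% and 63.5% of all genes with a mean over 50.

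Tnrc18 and Ski were the calls shared with the pair at 8% CCl4, with log2 fold changes of 0.94 ± 0.18 (adjusted p = 0.01, edgeR) and 0.78 ± 0.16 (adjusted p = 0.0199). Srfbp1 (-0.51 ± 0.12, adjusted p = 0.085) and Dcaf12 (-0.30, adjusted p = 0.0767) were those shared with the pair at 50% CCl4. Osgin1, at 1.5 here, was at 0.26 ± 0.37 in the pair with treated F1 sires, 0.93 ± 0.38 at 8% and 0.82 ± 0.38 at 50%. Herpud1 was at -0.18, -0.42 and -0.50 in the same order.

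**Figure D4:**
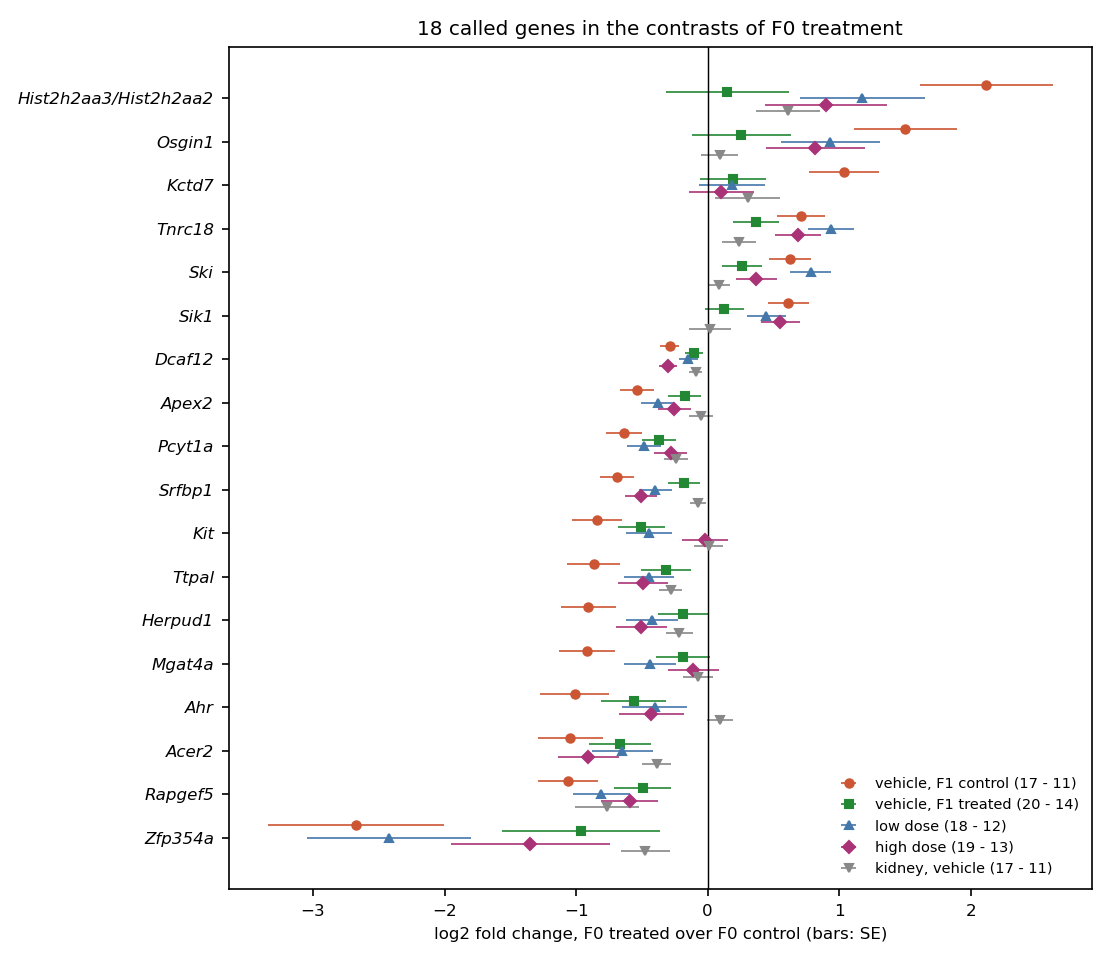
The log2 fold changes of F0-treated over F0-control males (x axis, bars are standard errors) are plotted for the 18 symbol-bearing called genes (y axis) in groups 17 against 11, in the 3 further liver pairs and in kidney. All 4 liver points of a gene lie on the same side of 0, the kidney points do for 16 of 18 genes, and those of 17 against 11 lie farthest from 0 for most genes, the contrast by which they were chosen.

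Whether the F0 effect itself differed between pairs was tested by differences of the contrasts, and 0 genes were called for any of the 3 differences by edgeR. At an unadjusted p under 0.05 there were 1175 genes for the difference from treated F1 sires, 800 for that from 8% and 878 for that from 50% CCl4, and DESeq2 called 14, 10 and 12. Over the named genes, the lowest adjusted p was 0.171, 0.726 and 0.472. The lowest in the difference from treated F1 sires belonged to ENSRNOG00000013090.7 and ENSRNOG00000014426.7, with differences of 3.56 ± 0.75 and -3.84 ± 0.84 (SE) on the log2 scale.

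Levels in the other vehicle groups lay towards those of group 17. In group 14, whose F1 sires alone were treated, the median was on the side of group 17 relative to group 11 for 18 of the 18 symbol-bearing genes, and between the medians of 11 and 17 for 17 of them. In group 20, with both ancestors treated, it was on that side for all 18 and between for 10. Osgin1 had medians of 3764 in group 11, 11429 in group 14, 14220 in group 20 and 15016 in group 17, with ranges of groups 14, 17 and 20 that overlapped. For Herpud1 the medians were 11259, 7839, 7238 and 6178, and group 14 spread from 4827 to 11931. These placements use the group 11 males that also defined the calls and are given as levels without a test.

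The kidneys of the same 13 males showed no call. Of 18374 genes tested, 0 passed the adjusted p by edgeR and 1081 had an unadjusted p under 0.05, and DESeq2 called 3. Of the 52 genes called in liver, 42 were tested in kidney, and 33 had the same sign. Among those with a mean over 50 it was 23 of 29, against 66.8% of all genes with a mean over 50, in organs of the same males. The 18 symbol-bearing genes gave 16 with the same sign and a lowest adjusted p of 0.783. Acer2 was at 3430 (median 3910) to 4327 in kidneys of group 11 and 2270 (median 3033) to 3602 in those of group 17, a log2 fold change of -0.39 ± 0.11, and Rapgef5 at -0.76 ± 0.24. Osgin1, with kidney medians of 9100 and 9776 (0.09 ± 0.14), and Kit, at 0.01 ± 0.11, differed little there.

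The number of genes called varied with single males. Without 1 male of group 11, the count went from 52 to 28 (male 1), 16 (male 2), 2 (male 4), 337 (male 5), 21 (male 7), 14 (male 9) or 4 (male 10). Without 1 male of group 17, it went to 327 (male 1), 3 (male 2), 242 (male 4), 255 (male 7), 650 (male 9) or 234 (male 10). Srfbp1 and ENSRNOG00000013090.7 were called in all 13 of these fits. Rapgef5 and Pcyt1a were called in 11 of them, and Herpud1, Kit and Mgat4a in 10. Tnrc18, Kctd7 and the histone pair were called in 5. No symbol-bearing called gene changed sign in any of them.

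**Figure D5:**
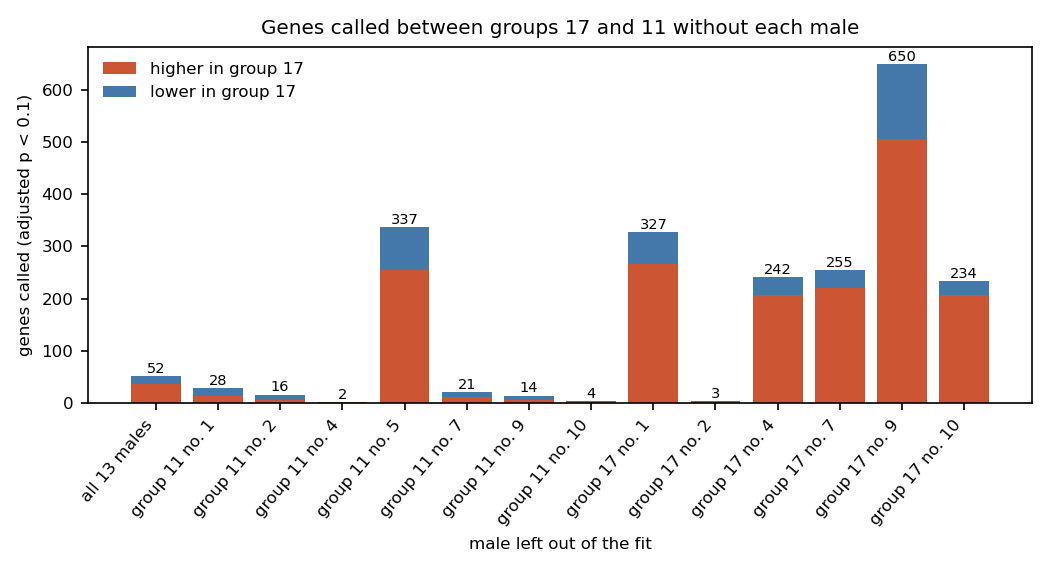
Bars give the number of genes called between groups 17 and 11 (y axis, adjusted p under 0.1) when the male named on the x axis is left out, stacked by direction. Counts run from 2 without male 4 of group 11 to 650 without male 9 of group 17, where 52 genes were called with all 13 males.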

How the data were processed

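Liver RNA of 83 F2 males in 12 groups and kidney RNA of 27 vehicle males in 4 groups was used, with groups taken from the sample descriptions and necropsy dates and pedigree from the study's supplement. The authors prepared stranded poly(A) mRNA libraries and estimated abundance with Salmon 0.14.0 against Ensembl rat transcripts. The deposited tables hold whole-number estimated counts per gene that had not been scaled for depth. A second pair of deposited tables holds the mean length of the transcripts of each gene in bases, used as offsets in an alternative. Deposited tables carry Ensembl identifiers, and symbols for 1489 of 31998 came from identifiers that the study's supplementary gene lists pair with names; all are genes that it selected for ancestral effects. Its own fold changes and p-values were not used.

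Genes were tested where the counts of any group summed to over 10, in R 4.3.3 with edgeR 4.0.16, on TMM-normalized counts with a quasi-likelihood fit over all groups, and contrasts of group means were called at a Benjamini-Hochberg adjusted p under 0.1. Normalized counts are TMM-scaled. Exact permutation tests of single genes over the 13 males were planned but are not given, since the genes were chosen by the same contrast. DESeq2 1.42.0 and limma 3.58.1 (voom with sample weights) served as alternatives. The procedure was tested on simulated data. Named genes were the called genes with a symbol and a mean over 50, the study's exemplary and stellate cell genes, called list members and the extremes of each list, and up to 2 called genes without a symbol in each direction. Genes given by date, or named beyond that rule (Nfe2l2), were chosen after their values were seen. The comparison, the lists and the rules were chosen with earlier results of these data known. Males are separate animals, but some share a litter or a grandsire, so the p-values take them as more independent than they are. A count of 0 allows up to 3 counts, which covers counting error only. Some list members are not reported here.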

Additional observations from a re-analysis of the deposited data

Results flagged for a closer look

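In 136 sets of values (61 named genes and library measures in each group), the highest or lowest male was checked for its distance from the nearest other male relative to the range of its group, by Dixon's critical value. Chance flags about 1 in 20 independent, normally distributed sets. These sets share males and include genes chosen by the contrast, so the 17 that were flagged cannot be read against that rate. Male 4 of group 17 held 7 of them, male 10 of group 11 held 3, and male 5 of group 11 and male 2 of group 17 held 2 each.

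In group 17, male 4 was the lowest for Ski (normalized count 392), the chromatin remodeller Hells (519), the DNA demethylase Tet2 (209) and the endothelial receptor Kdr (2022), and the highest for ENSRNOG00000028640.7 (481). Its library stood apart at -52.1 on PC2 and by a median correlation of 0.892 with its group. Male 2 stood apart by 18475 genes with counts and by 77.1 on PC1.

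In group 11, male 10 was the lowest for the coactivator Ppargc1a (48.1) and the histone demethylase Kdm6b (464) and the highest for the lipogenic factor Srebf1 (9636). Male 5 was the highest for Hist2h2aa3/Hist2h2aa2 (63.1) and had the lowest median correlation of group 11 (0.961). Male 2 was the highest for Sik1 (2033), male 9 the lowest for Rrp7a (880.1) and male 1 the lowest for ENSRNOG00000014426.7 (40.4). No difference of the F0 effect between pairs of groups was called by edgeR.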

How the results depend on the processing

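Against 52 calls, groups 17 and 11 gave 174 with DESeq2 (46 of the 52 among them), 248 with limma-voom (30 among them; 146 higher, 102 lower), 79 with DESeq2's size factors (62 higher, 17 lower), 10 with transcript length offsets (5 in each direction), 57 with a mean count filter, 19 without a filter (10 higher, 9 lower), 2 at an adjusted p under 0.05, 0 with only the 13 males, 14 with only the vehicle groups (7 in each direction), 30 with necropsy date as a block (18 higher, 12 lower) and 1 with males of the same F0 sire summed. Leaving out 1 male gave 2 to 650. Leaving out dates 1 to 4 gave 0, 16, 10 and 9, and leaving out males 2 and 4 of group 17 together gave 0. DESeq2's size factors moved the median of all genes from 0.05 to 0.06 on the log2 scale.

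Males with the same number share a necropsy date, but the labels do not say so, the residual correlations of the 6 same-numbered pairs ran from -0.179 to 0.135, and 0 of 6 males of group 17 was most like its own number. The replicate block gave 15 calls for groups 17 and 11 (4 higher, 11 lower, all among the 52) and 2 for groups 18 and 12.

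Groups 20 and 14 went from 0 calls to 10 with DESeq2 and 19 with limma-voom. Groups 18 and 12 went from 24 to 133 with DESeq2, 1464 with limma-voom, 12 with length offsets, 67 with the mean count filter, 9 at the stricter threshold, 44 with the date block, and 0, 6 and 44 without dates 1, 2 and 4. Groups 19 and 13 went from 24 to 66 with DESeq2, 319 with limma-voom, 15 without a filter, 11 at the stricter threshold, 1 with only these groups, and 9, 5, 7 and 8 without dates 1 to 4. The difference of the F0 contrast from treated F1 sires went from 0 to 14 with DESeq2, 1 with the date block, 1 without date 3 and 0 to 2 when leaving out 1 male, that from 8% CCl4 to 10 with DESeq2 and 1 without date 4, and that from 50% to 12 with DESeq2. The causes were not tested.

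None of the 18 symbol-bearing called genes reversed under any alternative, and 18 stayed called with DESeq2, 16 with limma-voom, 12 with the date block, 9 with the replicate block, 5 with only the vehicle groups, 4 with length offsets, 1 with males of the same F0 sire summed, 1 at an adjusted p under 0.05, 1 without male 2 of group 17, 0 without date 1 and 0 with only the 13 males. Of named genes that were not called, Socs3 was called under 10 of 30 alternatives, Cd163 under 8, Il17ra under 7 and Riox1 and Gar1 under 5 each. Genes near 0 that were not called did reverse. Rrp7a went from -0.01 to 0.0065 with DESeq2, 0.0071 with its size factors, 0.0023 with the mean count filter, 0.0072 without a filter, 0.0058 with the vehicle groups, 0.0020 with the replicate block, 0.012 with sires summed, 0.035 without date 1, and -0.053 to 0.027 when leaving out 1 male. Rtp4 went from 0.31 to -0.055 with limma-voom, -0.027 without date 2 and -0.032 to 0.48 leaving out 1 male, Cyp1a1 from 0.07 to -0.44 without date 1 and -0.20 to 0.45 leaving out 1 male, Tet2 from 0.07 to -0.13 without date 4 and -0.048 to 0.24 leaving out 1 male, and Cry1 from -0.11 to 0.028 without date 1. With 6 and 7 males, genes of low counts could rest on a single library, and the part of depth was not tested.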

Other observations

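Chromatin and metabolic genes with a symbol gave no further call. Of 4 DNA methylation genes, all 4 had higher values in group 17 with a median log2 fold change of 0.41, and 3 had an unadjusted p under 0.05. Over all genes tested, 10622 had higher values, and 9.66% were higher at that p. The study had selected the 4 for an F0 effect. Of 9 histone demethylases, 5 were higher and 4 lower in value, from Kdm6b, which removes a repressive mark from histone H3, at 0.50 ± 0.19 (SE; adjusted p = 0.204, edgeR) to the ribosomal oxygenase Riox1 at -0.60 ± 0.17 (adjusted p = 0.11). Srebf1, a driver of lipogenesis, was at 0.76 ± 0.34 and was not called.

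The immediate early gene Ier3 was at 0.71 ± 0.23 (adjusted p = 0.14, edgeR) and Egr1 at -0.82 ± 0.56, and neither was called. When leaving out 1 male, Ier3 ran from 0.44 to 0.81 and Egr1 from -1.44 to -0.63. The interferon gene Rtp4 was at 0.31 ± 0.34, the cyclin gene Ccne1 at -0.88 ± 0.40 and the mitochondrial transcript Mt-co1 at 0.08 ± 0.16. In the pericentral markers, 3 of 8 had a symbol, and all 3 were lower in value with a median of -0.50, among them the glutamate transporter Slc1a2 at -0.60 ± 0.43. The Bmal1 gene Arntl was at -0.32 ± 0.22 and Cry1 at -0.11 ± 0.26. The histone entry Hist2h4/Hist1h4m/Hist1h2ao/Hist2h4a/Hist1h4b, whose copies cannot be separated, had medians of 14.8 and 41.8 (1.35 ± 0.50, adjusted p = 0.187).

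Of the 419 genes that stood out in the liver of male 2 of group 17, 248 had no count in the kidney of the same male and 348 had a normalized count over 10 in at least 1 of the other 82 livers. Of the 59 that stood out in male 4, 15 had no count in its kidney and 53 were over 10 in another liver. The littermates 1 and 2 of group 17 had a residual correlation of 0.249, against a mean of 0.0386 for males necropsied on the same date and -0.0111 for males of different dates.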
